A study of Mus musculus with 56 samples.

Results

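Cultured mouse cortical neurons were exposed to topotecan for 24 h, and RNA was taken either with the drug or after the drug had been washed out. The experiment comprised 4 of the 56 arrays of the series: 1 array labelled topotecan 24 h, 1 array labelled topotecan 24 h with washout, and 2 vehicle arrays, which also served a 10 µM irinotecan experiment. They were chosen by their titles alone. Per the labels, C57BL6 mouse embryos (embryonic day 13-15) supplied the neurons, which received drug or vehicle after 7 days in culture. The labels give neither the topotecan dose of this experiment nor the length of the washout. Nothing in them says whether the arrays came from separate cultures.

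Topoisomerase I relaxes the supercoils that build up ahead of and behind a transcribing RNA polymerase by cutting a single DNA strand, letting it turn and sealing it again. Topotecan, a camptothecin derivative used against tumours, holds the enzyme on the cut strand. Transcription of long genes, many of which encode synaptic proteins in neurons, is known to be sensitive to loss of this activity. The comparison of 24 h with washout asks whether such changes remain once the drug is gone. The titles of the vehicle arrays, which serve both conditions, give no time. Removal of the drug and time in culture thus cannot be told apart here.

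Each array was an Affymetrix MoGene 2.1 ST array of total RNA. Values below are levels in log2 of the deposited intensity, always in the order vehicle 1, vehicle 2, 24 h, washout, or differences in log2 from the mean of the 2 vehicle arrays. With 1 array per condition there is no replicate check and no p-value. A gene was instead counted as lower or higher past 2-fold when its array lay at least 1 log2 unit from both vehicle arrays on the same side. The vehicle arrays gave the scale of array-to-array variation: vehicle 2 lay below vehicle 1 past 2-fold for 8 of 13308 genes (0.0601%) and above it for 2 (0.015%). Pearson's r over these genes was 0.994 between the vehicle arrays, 0.967 and 0.968 between the 24 h array and each of them, and 0.992 and 0.993 between the washout array and each of them. The SD of the differences over genes was 0.403 at 24 h, 0.181 after washout and 0.183 between the vehicle arrays, the first 2 against the vehicle mean, which varies less than a single array. Array mean intensities ran from 139.5 to 142.4. The drug's target, Top1, had levels of 8.84, 8.77, 8.95 and 8.78, and Top2b, the type II enzyme of postmitotic neurons, had 8.63, 8.53, 8.12 and 8.56.

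At 24 h 275 of 13308 genes (2.07%) were lower than both vehicle arrays past 2-fold and 31 (0.233%) were higher. Past 1.5-fold 606 (4.55%) were lower and 440 (3.31%) higher. The lower genes were mostly long. The higher ones were mostly short, but so were the genes kept. Of 13308 genes, 3556 spanned under 10 kb, 5800 spanned 10 to 50 kb and 1986 spanned over 100 kb. Of the 275, 227 had an annotated span over 100 kb and 221 over 200 kb. Of the 31, 27 spanned up to 50 kb and 1 spanned over 100 kb. The share of genes higher was 0.281% under 10 kb, 0.293% at 10 to 50 kb and 0.0504% over 100 kb, against 0.233% of all genes. The count of higher genes rested on both vehicle arrays being used, since it was 66 against vehicle 2 alone and 72 against vehicle 1 alone, while the count of lower genes was 293 and 323. Among the lower genes, 42 had predicted or small RNA names, and 26 had a 24 h level under 5.01, called the dim limit below because genes with a mean under it were not used.

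Among named genes, a receptor and its ligand had the largest differences at 24 h on the probe sets used. A Ube3a probe set that the probe set rule left out differed by -5.42. Erbb4, the receptor tyrosine kinase for neuregulins, had levels of 9.14, 9.01, 5.61 and 8.58, a difference of -3.46 at 24 h and of -0.49 after washout. Its ligand gene Nrg3 had 9.51, 9.43, 6.03 and 9.28, a difference of -3.44 at 24 h. For both genes the 24 h array stood far below the other 3, and the washout array below both vehicle arrays. Other receptors were among the 15 largest named falls. Dcc, the netrin receptor that guides growing axons, had 8.32, 8.14, 5.61 and 7.97. Epha6, an ephrin receptor, had 8.38, 8.56, 5.89 and 8.31. Their differences at 24 h were -2.61 and -2.58, against -0.25 and -0.16 after washout.

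Subunits of ion channels and proteins that tune them stood low as well. Kcnip4, a cytosolic partner of A-type potassium channels, had levels of 8.67, 8.72, 5.36 and 8.71. It was 10.1-fold lower at 24 h, and its washout array lay between the vehicle arrays. Dpp10, a membrane partner of the same channels, had 9.08, 8.94, 6.38 and 8.58 and remained 1.35-fold lower after washout. Cacna2d3, an auxiliary calcium channel subunit, had 8.95, 8.77, 6.30 and 8.57. Kcnma1, the large-conductance calcium-activated potassium channel, had 9.92, 9.77, 7.48 and 9.76. Its difference at 24 h was -2.36, or -1.38 when its probe sets were averaged, as the second of them is dim. Of 41 voltage-gated channel genes 14 were lower past 2-fold, against 2.07% of all genes, and none was higher. Their median difference was -0.50 against 0.08 over all genes.

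Synaptic adhesion molecules were numerous among the lower genes. Nrxn3, a presynaptic neurexin, had levels of 10.22, 10.22, 7.29 and 9.90, and Nlgn1, a postsynaptic neuroligin that binds neurexins, had 9.15, 9.06, 6.73 and 8.90. The differences at 24 h were -2.94 and -2.38. Mdga2, which binds neuroligins, differed by -2.70, Tenm2, a teneurin, by -2.49, Il1rapl1, a synapse organizer, by -2.83, and Cntnap2, a contactin-associated protein of axons, by -1.94. All 6 had a washout array below both vehicle arrays, with differences from -0.17 (Mdga2) to -0.36 (Cntnap2). The large membrane proteins Csmd1, Csmd3 and Lrp1b and the sodium pump partner Nkain2 differed by -3.09, -2.89, -2.84 and -3.01. Of 80 genes of synaptic adhesion and axon guidance 32 were lower past 2-fold, against 2.07% of all genes, and none was higher. Their median was -0.70.

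Receptors and release machinery were covered unevenly. Of 20 glutamate receptor genes 9 were lower past 2-fold, against 2.07% of all genes, with a median of -1.06. Of the 20, 19 were below both vehicle arrays, against 30.6% of all genes. The share of 2.07% also stands beside the 2-fold counts of GABA receptor, vesicle release and autism candidate genes below. Grm7, a metabotropic receptor, had levels of 8.25, 8.29, 5.79 and 8.20, although its second, dimmer probe set lay above both vehicle arrays, and the mean of the probe sets differed by -0.995 in place of -2.48. Grik2, a kainate receptor, differed by -2.03, Grid1, a delta receptor, by -1.91, and Grin2b, an NMDA receptor subunit, by -2.01 (-1.11 over the mean of its probe sets). Among 11 GABA receptor genes 3 were lower past 2-fold, namely Gabrg3 (-1.71), Gabrb1 (-1.39) and Gabbr2 (-1.14). Gabrg1, with levels of 7.90, 7.73, 8.48 and 7.81, was the GABA receptor gene higher past 1.5-fold. Of 42 genes of vesicle release 7 were lower past 2-fold, with a median of -0.23. The active zone scaffolds Erc2, Ppfia2 and Rims1 differed by -1.95, -1.37 and -1.29, and Cadps, which primes dense-core vesicles, by -1.66. Of 75 autism candidate genes 20 were lower past 2-fold, none was higher, and the median was -0.46.

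**Figure D1:**
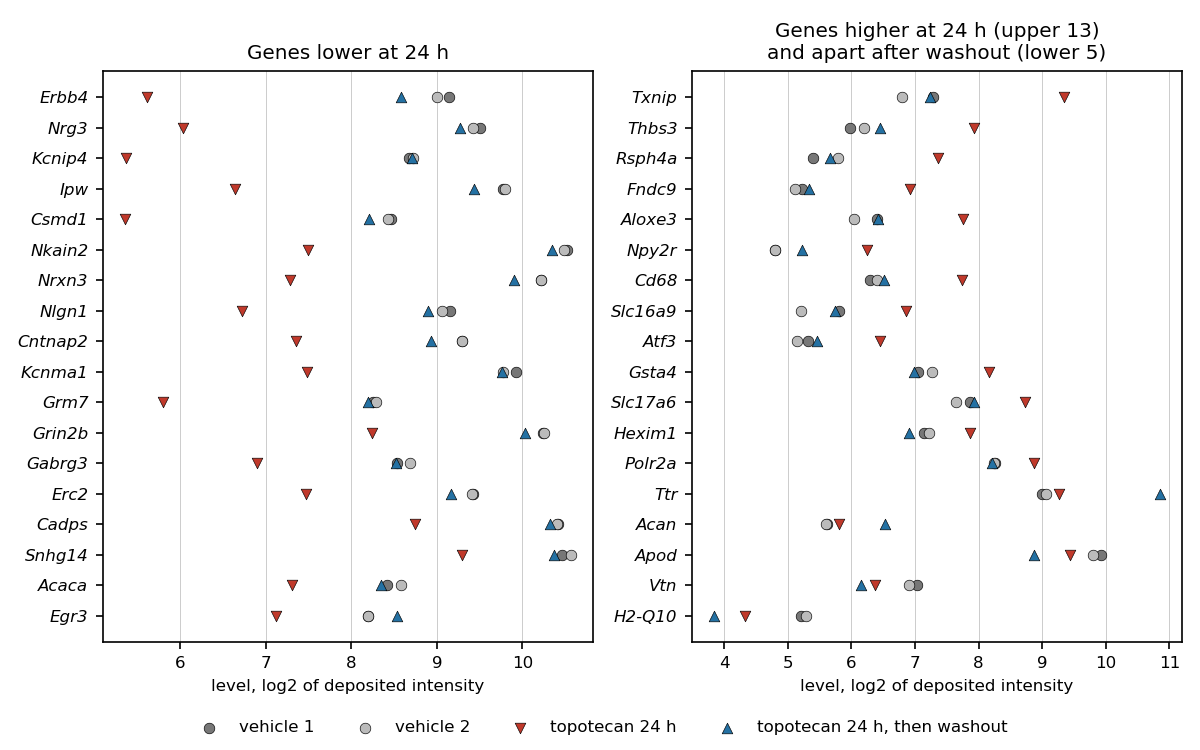
Levels (log2 of deposited intensity, horizontal axis) of 18 genes lower at 24 h, 13 genes higher at 24 h and 5 genes apart after washout, with 1 symbol per array: grey circles for vehicle 1 and 2, a red triangle for topotecan 24 h and a blue triangle for washout. For Erbb4 the 24 h array stands at 5.61 and the other 3 between 8.58 and 9.14. For Ttr the washout array stands at 10.85 and the other 3 between 9.00 and 9.26.

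The difference followed gene span in steps. At 24 h the median difference was 0.12 for 3556 genes under 10 kb, 0.15 for 5800 genes of 10 to 50 kb and 0.02 for 1893 genes of 50 to 100 kb. It was -0.12 for 1147 genes of 100 to 200 kb, -0.54 for 640 genes of 200 to 500 kb and -1.32 for 199 genes over 500 kb. The sign thus turned between 50 and 200 kb. Of the 199 longest genes 132 were lower past 2-fold, against 2.07% of all genes, and 193 lay below both vehicle arrays, against 30.6%. For 51 genes over 1000 kb the median was -1.78. As a description across genes, which are not independent, Spearman's rho between span and the 24 h difference was -0.30 over 13235 genes with an annotated span. The long-gene score, which is the mean level of genes over 100 kb minus that of the other genes, was 0.59 and 0.578 in the vehicle arrays, 0.0755 at 24 h and 0.557 after washout.

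**Figure D2:**
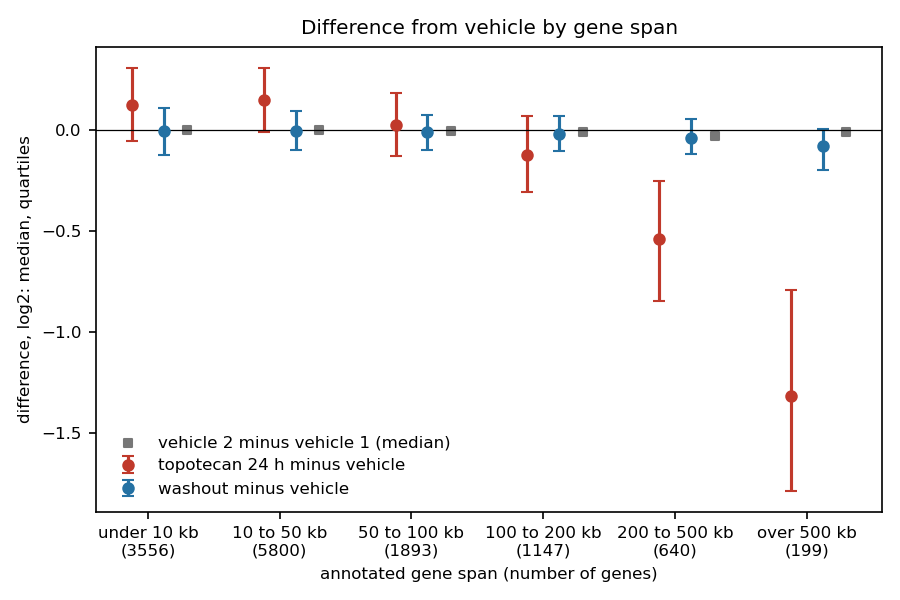
Differences from the mean of the vehicle arrays (log2, vertical axis) in 6 classes of annotated gene span (horizontal axis, number of genes in brackets), as medians with quartiles over genes for topotecan 24 h (red) and washout (blue), with the median of vehicle 2 minus vehicle 1 as grey squares. The red medians fall from 0.15 at 10 to 50 kb to -1.32 over 500 kb, and the blue medians lie between -0.01 and -0.08.

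Genes called on other arrays gave a view that did not choose genes by the 24 h or washout differences. The choice of probe set and the filter did use all arrays of the type. Topotecan at 1 µM had been compared with its own vehicle on 6 arrays each, for a drug time that the labels do not assign to arrays. In that comparison (limma, Benjamini-Hochberg adjusted p under 0.05) 2773 of 13308 genes (20.8%) fell and 2434 (18.3%) rose, and 378 (2.84%) fell and 59 (0.443%) rose by at least 2-fold. Of the 378 that fell by 2-fold, 241 were lower past 2-fold in the 24 h array, against 2.07% of all genes, and none was higher. Their median was -1.25. The 59 that rose by 2-fold had a median of 0.28 at 24 h. Of the 59, 2 were higher past 2-fold, against 0.233% of all genes. Of the 275 genes lower at 24 h, 273 fell and none rose at 1 µM. Of the 31 higher at 24 h, 18 rose and none fell. Across 13308 genes the 24 h differences had an r of 0.676 with the 1 µM differences, a description over genes, which are not independent.

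Long and short genes of this set of 378 had unlike medians at 24 h. The 130 genes over 500 kb had medians of -1.68 at 24 h and -1.79 at 1 µM, and the 132 genes of 200 to 500 kb had -1.16 and -1.30. The 85 genes up to 100 kb had -0.59 at 24 h against -1.41 at 1 µM. Of these, the 29 genes of 10 to 50 kb had -0.16 and -1.25, and the 49 genes under 10 kb, miRNA genes among them, had -1.30 and -1.53. The 1 µM medians are those the set was chosen on and so are biased away from 0. Sst, the somatostatin gene of a class of interneurons, is a short gene that fell by 2.61 ± 0.10 (SE, n = 6 and 6, limma adjusted p = 6.07e-10) at 1 µM, while its levels here were 10.59, 10.44, 10.23 and 10.08. Gfap and Aqp4, astrocyte genes for an intermediate filament and a water channel, fell by 2.72 ± 0.0921 (limma adjusted p = 1.4e-10, n = 6 and 6) and 2.74 ± 0.10 (limma adjusted p = 3.11e-10). Here they had 6.38, 7.00, 6.38 and 6.19, and 6.71, 7.05, 6.31 and 6.30. Their mean vehicle levels in the 1 µM experiment were 8.26 and 8.60, but levels are not compared across experiments that may have been normalized separately. Npy, a neuropeptide gene named after its values were seen, had 8.41, 8.40, 8.42 and 7.92 here and fell by 1.98 ± 0.13 at 1 µM (limma adjusted p = 2.99e-08, n = 6 and 6). Dose, time and culture may all differ between the experiments and cannot be told apart here. In bulk RNA, fewer cells of a type and less RNA per cell cannot be told apart either.

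**Figure D3:**
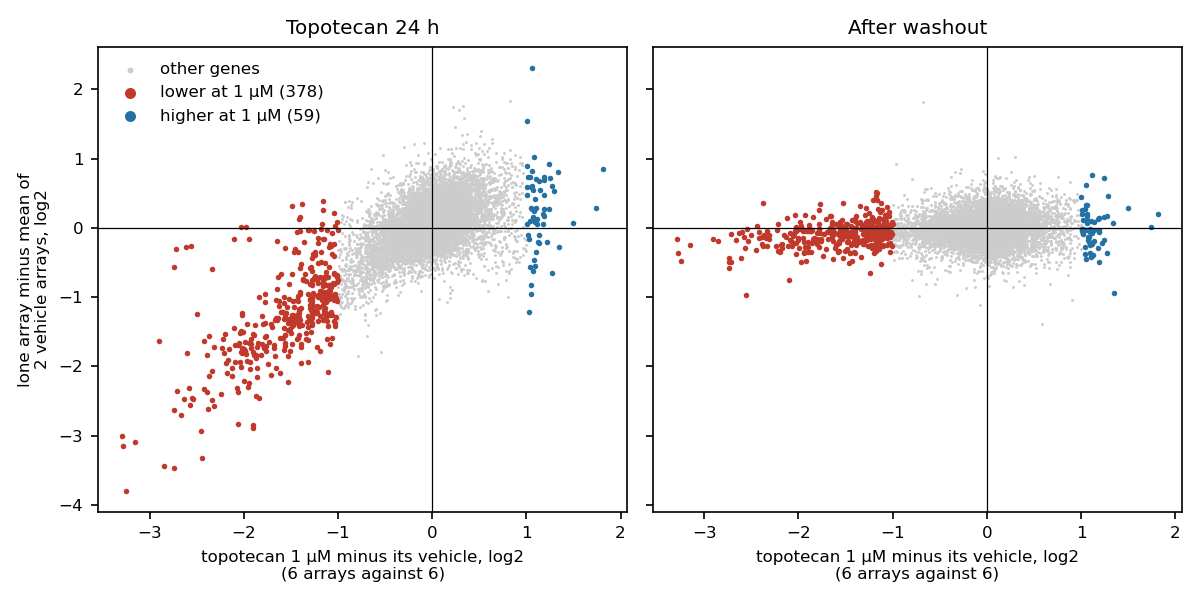
Each point is 1 of 13308 genes. The horizontal axis is the difference at 1 µM topotecan (6 arrays against 6, log2) and the vertical axis the difference of the 24 h array (left) or the washout array (right) from the mean of the 2 vehicle arrays. Red marks the 378 genes that fell and blue the 59 that rose by 2-fold at 1 µM. The red genes have a median of -1.25 on the left and of -0.08 on the right.

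Among genes higher at 24 h, Txnip stood first. It encodes a protein that binds thioredoxin and restrains glucose uptake, and its transcription is known to respond to sugar phosphates through MondoA and ChREBP, which bind carbohydrate response elements. A stretch of its promoter that matches the letters of such an element (RefSeq, GRCm38.p6, chr3:96557797-96557956, plus strand, ending at the base before the annotated start) is shown because this gene had the largest difference upward, and capitals mark the match to 2 copies of CACGNG with 5 bases between them.

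Txnip promoter: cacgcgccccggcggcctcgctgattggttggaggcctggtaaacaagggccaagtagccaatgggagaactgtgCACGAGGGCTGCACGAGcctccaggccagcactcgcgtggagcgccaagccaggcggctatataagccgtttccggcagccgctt

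The match lies 85 to 69 bases before the start. On either strand the motif was found in 16 of 32851 promoters of 250 bases before to 50 after a start (0.0487%), and no other motif was searched. The 8 other kept genes with a match differed by -0.02 to 0.50 at 24 h, none past 1.5-fold. Levels of Txnip were 7.27, 6.79, 9.34 and 7.23, so the 24 h array stood 4.95-fold above the vehicle mean and the washout array between the vehicle arrays. At 1 µM Txnip rose by 1.06 ± 0.14 (SE, n = 6 and 6, limma adjusted p = 5.76e-05). Its relative Arrdc4, named after its values were seen, had 8.17, 7.87, 8.81 and 8.03. Among the vehicle, 24 h and washout arrays, both genes were high at 24 h alone. With irinotecan, which used the same vehicle arrays, Txnip had 9.49, 8.96 and 8.96, and Arrdc4 had 8.68, 8.42 and 8.32. A match is a description of letters and was not tested as a site.

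The other named genes higher at 24 h had varied roles and were mostly low in vehicle. Thbs3, a thrombospondin of the extracellular matrix, had levels of 5.99, 6.20, 7.93 and 6.45 and rose by 0.83 ± 0.10 at 1 µM (limma adjusted p = 2.83e-05, n = 6 and 6). Aloxe3, a lipoxygenase, had 6.40, 6.04, 7.76 and 6.42 and rose by 1.01 ± 0.089 at 1 µM (limma adjusted p = 8.57e-07, n = 6 and 6). Rsph4a, a part of the radial spokes of motile cilia, had 5.39, 5.79, 7.36 and 5.66. Each of the 3 stood above 7.3 at 24 h and at 6.45 or below elsewhere. Fndc9 and Npy2r, a neuropeptide Y receptor, had 24 h differences of 1.75 and 1.45, and at 1 µM their differences of 0.22 and 0.25 did not pass the test (limma adjusted p = 0.0915 and 0.174, n = 6 and 6). Hbq1a, a globin gene, was dim in vehicle (4.21 and 4.19) and stood at 5.91 at 24 h. Atf3, a stress-induced transcription factor, had 5.32, 5.14, 6.45 and 5.46. Slc16a9 and Slc16a6, of the monocarboxylate transporter family, differed by 1.34 and 1.23, the first by 0.75 over the mean of its probe sets. Trhr, the receptor for thyrotropin-releasing hormone, had 5.99, 5.46, 6.78 and 5.22, and Slc17a6, a vesicular glutamate transporter, 7.87, 7.64, 8.73 and 7.93. Both of these were past 1.5-fold but not past 2-fold against vehicle 1. Cd68, a lysosomal protein of macrophages and microglia, had 6.29, 6.40, 7.75 and 6.50. Of 11 microglia markers kept it was the only one past 2-fold, and 10 of the 11 lay under the dim limit in vehicle. The summed intensity of the list was 344 and 337 in vehicle, 496 at 24 h and 329 after washout. Cd68, the brightest member, weighs most in that sum. The median difference of the 11 microglia markers was 0.13 at 24 h, against 0.08 over all genes, and -0.13 after washout. The part of those cells in the result was not tested.

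Lists of damage and stress genes differed from each other at 24 h. Over all genes 53.1% lay above both vehicle arrays at 24 h, so counts in this direction were read against that share. Among 38 p53 targets 26 did so, with a median of 0.23 and none past 2-fold. After washout 24 of the 38 still did so, against 32% of all genes, with a median of 0.11. Perp, a membrane protein of cell junctions, had levels of 6.73, 6.68, 7.47 and 7.04. Cdkn1a, the cyclin-dependent kinase inhibitor p21, had 10.45, 10.41, 10.83 and 10.70. Mdm2, which targets p53 for degradation, had 7.87, 8.10, 8.09 and 7.96. Perp and Cdkn1a were above both vehicle arrays in both conditions, and Mdm2 lay between them in both. Among 26 NRF2 and antioxidant genes 18 lay above both vehicle arrays, with a median of 0.34 at 24 h and -0.01 after washout. Gsta4, a glutathione transferase, had 7.05, 7.26, 8.16 and 6.99, and the metallothionein Mt1 had 7.48, 7.59, 8.22 and 7.49. Of 27 heat shock and ER chaperones 11 lay above both vehicle arrays at 24 h, under the share of all genes, and 17 after washout, with medians of 0.04 and 0.15. Of 27 genes of the integrated stress response 15 did so at 24 h, near the share of all genes, and 13 after washout, with medians of 0.13 and 0.08.

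Of 36 genes that control transcription elongation 25 lay above both vehicle arrays at 24 h, against 53.1% of all genes, and 2 were higher past 1.5-fold. The median was 0.15 at 24 h and -0.03 after washout. Hexim1, which holds the elongation kinase P-TEFb inactive, had levels of 7.14, 7.21, 7.86 and 6.91, which is 1.61-fold above the vehicle mean at 24 h and 1.20-fold below it after washout. Polr2a, the largest subunit of RNA polymerase II, had 8.26, 8.24, 8.87 and 8.22, and Supt5, a subunit of the pausing factor DSIF, 9.06, 9.11, 9.56 and 9.10. The 24 h array was the highest of the 4 for all 3 genes. Mllt3, a subunit of the super elongation complex that spans 263 kb, went the other way with 8.53, 8.68, 8.02 and 8.53. Of 22 snoRNA host and growth arrest RNAs 15 lay above both at 24 h, with a median of 0.16. Zfas1, a host of small nucleolar RNAs, had 7.04, 7.03, 7.74 and 6.93, and Snhg3 had 5.85, 5.85, 6.72 and 5.99.

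Sterol synthesis genes were lower at 24 h, short members included. Of its 23 genes 22 lay below both vehicle arrays, against 30.6% of all genes, with a median of -0.49 at 24 h and -0.02 after washout. Nsdhl, which removes methyl groups from sterol intermediates, had levels of 10.59, 10.64, 9.84 and 10.65. Mvd and Msmo1, enzymes of the same route that span 9.83 and 15.5 kb, had 8.23, 8.39, 7.55 and 8.21, and 8.87, 8.90, 8.18 and 8.85. The 24 h array was low and the other 3 together in all 3 genes. Acaca, which commits carbon to fatty acids and spans 272.0 kb, was the only member past 2-fold (8.41, 8.58, 7.30 and 8.35). The median was -0.39 at 1 µM, and -0.01 with irinotecan, which used the same vehicle arrays.

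**Figure D4:**
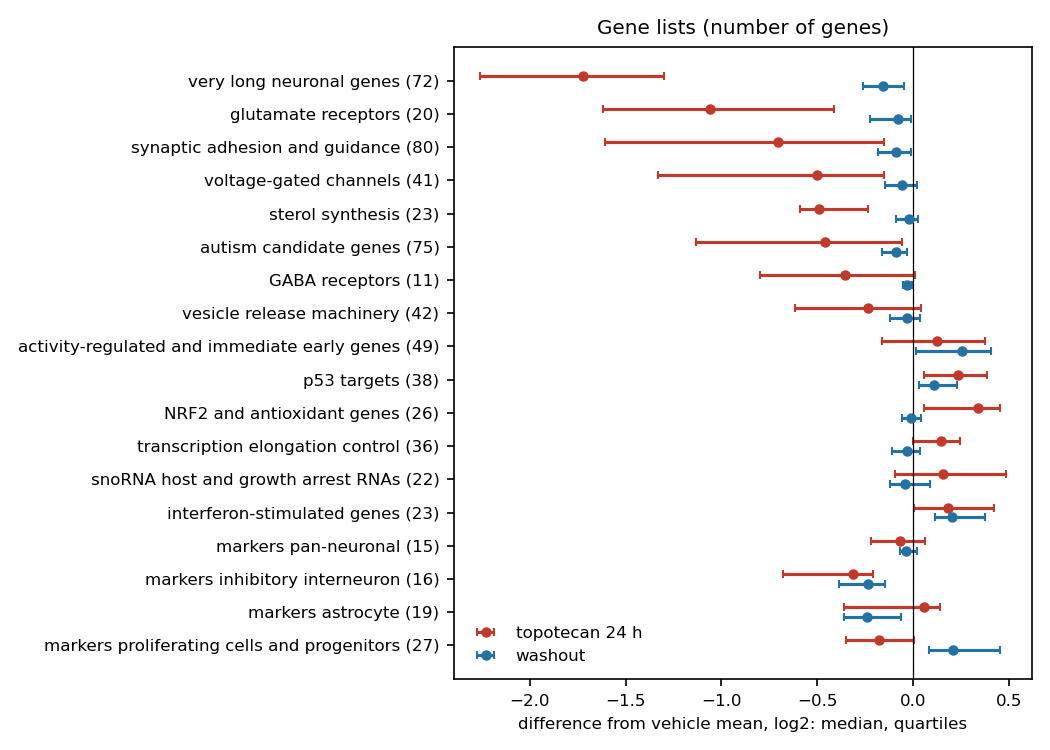
Median difference from vehicle (log2, horizontal axis) with quartiles over the genes of 18 lists (number of genes in brackets) for topotecan 24 h (red) and washout (blue), 1 array each. The very long neuronal genes move from -1.72 to -0.15, sterol synthesis from -0.49 to -0.02, and activity-regulated genes from 0.12 to 0.25.

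The imprinted Ube3a region held genes far below vehicle at 24 h and genes near it. Of 10 genes of the region kept 3 were lower past 2-fold, against 2.07% of all genes, with a median of -0.21. Below both vehicle arrays lay 5, against 30.6% of all genes, and above both lay 3, against 53.1%. The non-coding RNA Ipw, whose annotated span is 59.7 kb, had levels of 9.78, 9.79, 6.63 and 9.43, which is 8.88-fold lower at 24 h. Snhg14, the long host transcript that runs into an antisense of Ube3a, had 10.46, 10.56, 9.30 and 10.37. The brighter of the Ube3a probe sets by its mean over all arrays had 9.17, 8.93, 9.14 and 9.01, and the other had 10.03, 10.08, 4.63 and 9.57, a difference of -5.42 at 24 h and -0.49 after washout. The 24 h array thus lay inside the vehicle range on the first probe set and far under it on the second, and the strand each reads was not analysed here. Herc2, a ubiquitin ligase gene beside the region, differed by -0.62 at 24 h.

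Most miRNA genes of an imprinted cluster were lower at 24 h, and most still lay below vehicle after washout. Of 176 genes kept with miRNA names, 29 were lower past 2-fold at 24 h and 1 was higher, against 2.07% and 0.233% of all genes. The 176 include host genes such as Mir100hg and Mir99ahg, which are not miRNA genes themselves. Of the 176, 32 lay between Meg3 and Dio3 on chromosome 12. This imprinted cluster is transcribed from the maternal chromosome as a long chain of non-coding RNAs. Of the 32, 23 were lower past 2-fold, against 6 of the other 144. The cluster genes are named here after their values were seen. These probe sets cannot tell a hairpin from the host transcript that holds it, so the 32 may not be separate transcripts. Mature sequences from RefSeq (GRCm38.p6) are printed for some of the genes with large differences, chosen after their values were seen, and for a shared seed, with the seed, bases 2 to 8, in capitals.

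miR-128-3p: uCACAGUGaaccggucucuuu
miR-377-3p: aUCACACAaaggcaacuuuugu
miR-376b-3p: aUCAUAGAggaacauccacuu
miR-154-5p: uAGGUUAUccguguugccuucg
miR-379-5p: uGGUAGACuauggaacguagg
miR-1193-5p: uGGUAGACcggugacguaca
miR-9-5p: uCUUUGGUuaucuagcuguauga
miR-218-5p: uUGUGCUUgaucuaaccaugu

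The 61 mature miRNAs of the cluster genes kept carry 59 seeds. A shared seed is that of miR-379-5p and miR-1193-5p, whose genes had levels of 6.70, 6.48, 5.03 and 6.43, and 7.06, 6.99, 5.27 and 6.70. Mir377 had 7.11, 7.13, 4.72 and 6.85, Mir376b had 7.07, 7.15, 4.80 and 6.93, and Mir154 had 5.84, 6.02, 3.70 and 5.77. In all 5 genes the 24 h array was lowest and the washout array lay below both vehicle arrays. The median over the 32 genes was -1.34 at 24 h and -0.21 after washout, when 31 of 32 lay below both vehicle arrays against 38.4% of all genes. Rian, a host RNA of the cluster, had 10.34, 10.49, 9.69 and 10.30.

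Outside the cluster, genes for the same mature miRNA could differ in unlike ways. Mir128-2, inside Arpp21, had levels of 6.94, 6.75, 4.38 and 6.83, the largest difference of any miRNA gene at -2.46. Mir128-1, inside R3hdm1, encodes the same mature miR-128-3p and had 7.59, 7.55, 6.58 and 7.39. Mir9-2 had 7.70, 7.68, 6.46 and 7.59, while Mir9-1 and Mir9-3, which encode the same miR-9-5p, differed by -0.19 and 0.18 at 24 h. Mir218-1, inside the axon guidance gene Slit2, had 7.14, 7.12, 6.08 and 7.14. After washout Mir128-2 and Mir218-1 stood at the vehicle levels, and Mir128-1 and Mir9-2 below both. The 144 genes with miRNA names outside the cluster, host genes included, had medians of -0.05 at 24 h and -0.06 after washout.

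**Figure D5:**
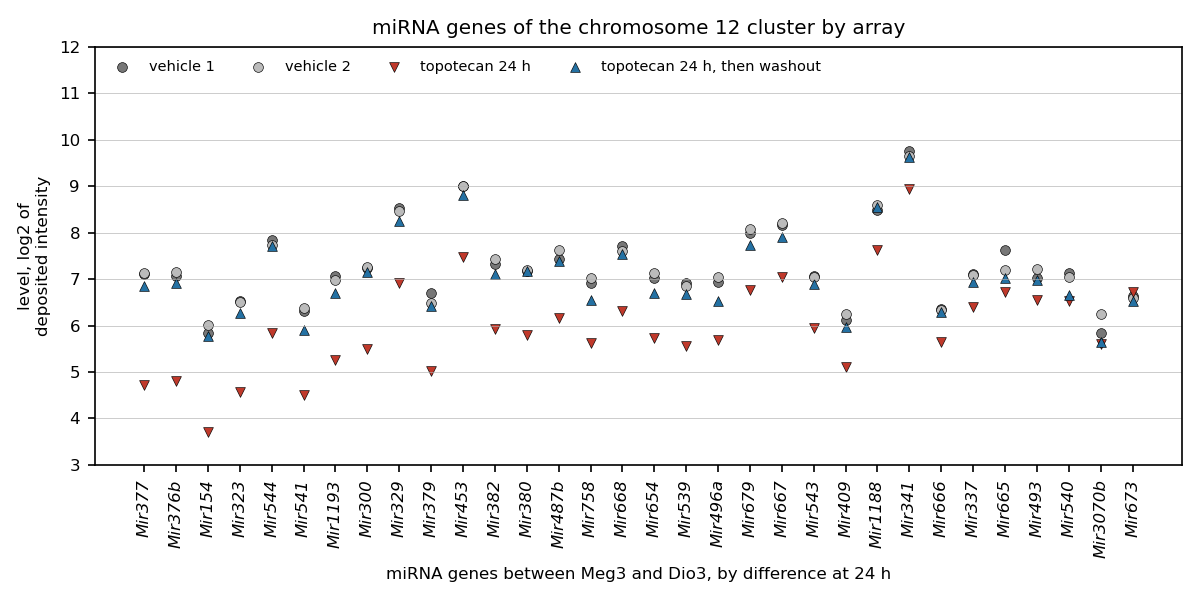
Levels (log2 of deposited intensity, vertical axis) of the 32 miRNA genes between Meg3 and Dio3, ordered by their difference at 24 h (horizontal axis), with 1 symbol per array: grey circles for the vehicle arrays, red triangles for 24 h and blue triangles for washout. The red symbols are lowest for most genes on the left, with a median difference of -1.34, and 31 of 32 blue symbols lie below both grey circles.

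After washout few genes were past the limits used at 24 h. Past 2-fold, 1 gene (0.00751%) was lower than both vehicle arrays and 1 (0.00751%) was higher. Past 1.5-fold, 37 (0.278%) were lower and 23 (0.173%) higher. A limit set by a single array is easier to pass: against vehicle 1 alone the washout array was lower past 2-fold for 12 genes (0.0902%) and higher for 6 (0.0451%), beside the 8 and 2 of vehicle 2 against vehicle 1. Between the lone arrays themselves, the washout array lay above the 24 h array past 2-fold for 282 genes (2.12%) and below it for 80 (0.601%). On the probe sets used, Kcnip4 (3.35), Nrg3 (3.25) and Erbb4 (2.97) had the largest positive differences of washout from 24 h among named genes. Txnip (-2.11) had the largest negative.

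The return was large but not complete for the longest genes. The median difference after washout was -0.01 in each of the 3 classes up to 100 kb, -0.02 for genes of 100 to 200 kb, -0.04 for 200 to 500 kb, -0.08 for genes over 500 kb and -0.18 for the 51 genes over 1000 kb. In the same order the share of genes below both vehicle arrays rose from 36.6% under 10 kb to 46.7% at 200 to 500 kb, 64.8% over 500 kb and 76.5% over 1000 kb, against 38.4% of all genes. Vehicle 2 minus vehicle 1 had medians of -0.01 over 500 kb and -0.03 over 1000 kb. The vehicle arrays enter every one of these differences, so a shift they share would appear in each.

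The set of 378 genes that fell at 1 µM was called on arrays outside this comparison. Its median was -1.25 at 24 h and -0.08 after washout. After washout 240 of the 378 (63.5%) lay below both vehicle arrays, against 38.4% of all genes, and 72 above both, against 32%. None passed 2-fold. For the 318 of them lower past 1.5-fold at 24 h, the difference left after washout was in the median 6.10% of that at 24 h. The quartiles were 0.12 and 11.4% and the range was -48.4 to 36.0%. The 318 were picked on the same 24 h difference that this share divides by, so the share may read low. Both differences also use the same vehicle mean. In 78 the washout array was at or above the vehicle mean, and in 16 more than 25% of the 24 h difference was left. The 49 genes of the set under 10 kb had a median of -0.18 after washout. Of these 49, 79.6% were below both vehicle arrays, against 68.5% of the 130 genes over 500 kb. Many of the 49 are miRNA genes of the chromosome 12 cluster, whose probe sets may read shared host transcripts. A host transcript may thus be counted more than once in that share. The 59 genes that rose at 1 µM had a median of -0.02 after washout.

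Many neuronal genes stood below vehicle after washout, mostly by small differences, and of those named here Cntnap5b did so by the most. Cntnap5b, a contactin-associated protein that spans 718 kb and was named after its values were seen, had levels of 6.47, 6.77, 4.83 and 5.81, the only gene over 500 kb lower past 1.5-fold after washout. Erbb4 (-0.49), Dpp10 (-0.43), Cntnap2 (-0.36) and Ipw (-0.36) also lay below both vehicle arrays, as did Trhr (-0.50), Npy (-0.49) and Sst (-0.43). Of these 7, Trhr, Npy and Sst had not been lower past 2-fold at 24 h. For Trhr vehicle 2 minus vehicle 1 was -0.53. Kcnip4 (0.02), Rgs7 (0.06), a regulator of G-protein signalling, and Gabrb1 (0.13) stood at or above vehicle, although all 3 had been lower past 2-fold at 24 h. The list medians after washout were -0.15 for 72 very long neuronal genes, -0.09 for adhesion and for autism candidates, -0.08 for glutamate receptors and -0.03 for GABA receptors and for vesicle release. Of the 72 very long genes 60 had been lower past 2-fold at 24 h, against 2.07% of all genes, and none was after washout. Still below both vehicle arrays were 52, against 38.4% of all genes.

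The gene farthest above vehicle after washout was Ttr, the thyroxine carrier made by the choroid plexus, with levels of 9.00, 9.06, 9.26 and 10.85. It stood 3.52-fold above vehicle in the washout array alone. It also varied between arrays of other groups: it had 10.43, 10.09 and 9.04 with irinotecan, and at 1 µM its difference was -0.68 ± 0.72 (SE, n = 6 and 6, limma adjusted p = 0.486). The other 6 choroid plexus markers kept, a list added after the values were seen, differed by -0.22 to 0.23 after washout. The summed intensity of the 7 was 1304, 1328, 1577 and 2732, and the part of such cells in the result was not tested. H2-Q10, a class I histocompatibility gene, was the gene lower past 2-fold (5.20, 5.28, 4.33 and 3.85), but its other probe set had a higher level after washout than in vehicle and the mean of both differed by -0.56. Acan, the aggrecan core protein of perineuronal nets, had 5.62, 5.60, 5.80 and 6.53 and was named after its values were seen, as was Apod, a lipid carrier of glia, with 9.93, 9.80, 9.44 and 8.87. Vtn, the matrix protein vitronectin, had 7.03, 6.91, 6.38 and 6.15.

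Activity-regulated genes stood above vehicle after washout. Of 49 such genes 35 lay above both vehicle arrays after washout, against 32% of all genes, with a median of 0.25, whereas at 24 h 28 did so against 53.1% of all genes and the median was 0.12. Egr3, an immediate early transcription factor, had levels of 8.20, 8.19, 7.12 and 8.54, lower past 2-fold at 24 h and above both vehicle arrays after washout. Npas4, induced by calcium entry, had 7.02, 7.06, 6.89 and 7.44. Fos had 6.05, 5.84, 6.22 and 6.48, and the neurotrophin gene Bdnf had 5.12, 5.19, 5.12 and 5.59. The washout array was the highest of the 4 for each of these genes, by differences of 0.34 to 0.53 from vehicle. Nptx2 and Scg2, a synaptic pentraxin and a secretogranin named after their values were seen, differed by 0.74 and 0.56 after washout. At 24 h they differed by 0.21 and 0.58, so Scg2 stood as high with the drug. Arc, a synaptic immediate early gene, did not share this and had 6.44, 6.58, 6.07 and 6.40. At 1 µM Egr3 fell by 1.78 ± 0.15 (limma adjusted p = 4.55e-07, n = 6 and 6) and Npas4 by 1.21 ± 0.17 (limma adjusted p = 7.93e-05, n = 6 and 6). No gene of the list was past 1.5-fold after washout.

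Markers of other cells in the cultures differed between the arrays as well. Of 15 pan-neuronal markers 1 was lower past 2-fold at 24 h, Rbfox3, which spans 422 kb (9.55, 9.50, 8.47 and 9.43), and the median was -0.07 at 24 h and -0.03 after washout, with Tubb3 at 10.99, 11.04, 10.77 and 11.04. Over all genes 30.6% lay below both vehicle arrays at 24 h, and after washout 38.4% lay below and 32% above both. Of 16 interneuron markers 13 lay below both vehicle arrays at 24 h and 13 after washout, with medians of -0.31 and -0.24. Reln, a secreted guidance protein spanning 460.3 kb, differed by -1.24 and -0.10. Of 19 astrocyte markers 15 lay below both vehicle arrays after washout, with a median of -0.24, while the vehicle arrays differed by 0.19 in their median. Their summed intensity was 9691 and 10558 in vehicle, 9663 at 24 h and 9090 after washout. Of 27 markers of proliferating cells and progenitors 16 lay below both at 24 h and 20 above both after washout. Their medians were -0.18 and 0.21, against 0.19 between the vehicle arrays. Their summed intensity did not fall at 24 h: it was 4841 and 5409 in vehicle, 5588 at 24 h and 5706 after washout. Mki67, a nuclear protein of cycling cells, had 5.73, 6.13, 5.15 and 6.43, and Top2a, the topoisomerase of dividing cells, 5.13, 5.48, 4.72 and 5.87. Of 23 interferon-stimulated genes 18 lay above both after washout, with a median of 0.20, and 10 of the 23 were under the dim limit in vehicle. The part of cell make-up in the differences of other genes was not tested.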

How the data were processed

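The authors made the values with Affymetrix Expression Console and RMA, per the submitters' processing notes; their versions, the annotation and which arrays shared a normalization are not given in the sources used here. The deposited values are intensities on a linear scale, and log2 was taken here. For each of 22180 genes with probe sets of a single symbol the brightest probe set by mean log2 over the arrays of the type was used, and genes under the 40th percentile were left out, which kept 13308. Spans came from the RefSeq annotation. The 1 µM comparison was fitted with limma 3.58.1 in R 4.3.3 (lmFit, eBayes, 2-sided); the fit and the fold rule were tested on simulated data. The lone arrays were not tested. The plan took the values to be log2 already. The members, gene lists and tests were chosen with earlier results of these data known. Named genes are the 15 largest falls and 10 largest rises at 24 h, 10 of each after washout, the 10 and 5 largest positive and negative differences of washout from 24 h, up to 4 of each list, and a few chosen genes such as Top1 and Ube3a; predicted genes are counted. Alternatives tried were quantile normalization, other probe set rules, other filters, a 1.5-fold limit and each vehicle array alone. The number of arrays limits the precision; where cultures are not stated to be separate, a p-value covers array spread alone, which may be technical.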

Additional observations from a re-analysis of the deposited data

Results flagged for a closer look

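Cdk2ap1, a regulator of the cell cycle kinase CDK2, stood on opposite sides of both vehicle arrays in the 2 conditions, at 0.79 at 24 h and -0.77 after washout. Its levels were 5.18, 5.10, 5.93 and 4.37, close to the dim limit, and the difference was not tested. Over the mean of its 2 probe sets the washout difference was -0.34.

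Probe sets without a gene symbol entered no comparison. Of 6779 at or over the same limit, 203 were lower than both vehicle arrays past 2-fold at 24 h and 30 were higher, and 190 were 2-fold apart between the vehicle arrays. After washout 36 were lower and 13 higher.

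In the 1 µM experiment single arrays stood apart from their own group. Chance alone sets apart about 1 in 20 groups by the gap used. Nkain2 was at 6.57 in replicate 1 of the drug group, whose next array was at 6.94, and Ipw at 9.53 in vehicle replicate 4, next to 10.03. Top1 was at 9.23 in drug replicate 3, next to 9.41, and Top2b at 9.18 in vehicle replicate 1, next to 9.01. The long-gene score of a vehicle array was 0.418, next to 0.479.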

How the results depend on the processing

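The medians and scores below kept their sign under each alternative run except the washout median of genes that rose at 1 µM (-0.0159), which lay between -0.0439 and 0.04. With both vehicle arrays, 24 h counts were 275 lower and 31 higher. The 60th percentile filter left 12 higher. Against vehicle 2 or 1 alone 66 and 72 were higher. At 1.5-fold 606 were lower and 440 higher. After washout the counts of 1 lower and 1 higher became 4 and 7 with no filter and 0 lower with the 60th percentile or with averaged probe sets. Against vehicle 2 alone they were 4 and 2, against vehicle 1 alone 12 and 6, and at 1.5-fold 37 and 23. Washout lay below 24 h for 80 genes, 127 with no filter and 23 with the 60th percentile; at 1.5-fold 743 lay above and 704 below. The median of genes over 200 kb was -0.65 at 24 h, -0.57 with no filter and -0.75 with the 60th percentile, and -0.052 after washout, -0.0341 with quantile normalization. The long-gene score minus vehicle was -0.51 at 24 h, -0.50 with averaged probe sets, -0.41 with no filter and -0.58 with the 60th percentile. After washout it was -0.0269, and -0.0358 with no filter.

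For genes that fell at 1 µM the 24 h median was -1.25: -1.23 with quantile normalization or the 60th percentile, -1.26 with averaged probe sets or no filter, -1.27 without vehicle replicate 1 and -0.23 for the set at adjusted p alone. The washout median was -0.0794, -0.0661 with quantile normalization and -0.0322 at adjusted p alone. For genes that rose it was 0.28 at 24 h and 0.18 with no filter. The 1 µM count of 2434 rises became 3771 with no filter. Replicate numbers at 1 µM did not pair the arrays (correlations of -0.53 to 0.25); with the number as a block the 1 µM counts were 2299 lower and 1928 higher, and leaving out each array gave 2378 to 3234 lower and 2117 to 2659 higher. In these cases the cause was not tested. The 101 gene values past 1.5-fold kept their sign in 324 of 324 alternatives run, and moved by up to 1.48 (Grm7 over averaged probe sets). Values within 1.5-fold were left out of that tally, and Ube3a among them changed sign and moved further. At 24 h Ube3a differed by 0.09 on the probe set used and by -2.66 over averaged probe sets. On its other probe set, the brighter in vehicle, it differed by -5.42. Quantile normalization changed the median of all genes at 24 h from 0.0832 to 0.0795. Single arrays, dim genes and unknown dose limit every statement on 24 h and washout.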
